A study of Zea mays with 2 samples.

Results

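Mesophyll (MS) cells of the maize leaf differed in how much of their RNA came from the chloroplast genome, and the cells at both ends of that range were compared here for their nuclear transcripts. A cell entered when it had over 1800 and under 7000 detected genes, under 4% of its unique molecular identifiers (UMIs, 1 per captured RNA molecule) from chloroplast genes, under 0.75% from mitochondrial genes, and more UMIs of the MS genes PEP1, CAH1 and MDH6 than of the bundle sheath (BS) genes ME1, RBCS1, RBCS2 and PCK1. This left 7291 MS cells, 3978 in library 1 and 3313 in library 2, of 7374 cells of any type that passed the limits and of 13444 barcodes in the files. Within each library the cells were ranked by the chloroplast share of their UMIs. The cells were then cut into 4 groups of equal size, here called quartiles. The high quartile is the one with the highest share (994 and 828 cells) and the low quartile the one with the lowest (995 and 829 cells).

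Chloroplasts keep a small genome of their own. It encodes core subunits of the photosystems, the cytochrome b6f complex, the ATP synthase and the NADH dehydrogenase-like (NDH) complex, parts of the plastid ribosome, and the large subunit of Rubisco. Most chloroplast proteins, including the light-harvesting antenna, are encoded in the nucleus, made on cytosolic ribosomes and imported, so that each photosynthetic complex is assembled from the products of both genomes. In C4 leaves of maize, MS cells carry out the first fixation of CO2 through carbonic anhydrase and PEP carboxylase, while Rubisco and the Calvin cycle are concentrated in the BS cells. Chloroplast transcripts largely lack the stable poly(A) tails on which capture of messenger RNA relies, so the chloroplast molecules counted in such a library are a selected portion of those in the cell.

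The samples were 2 single-cell libraries of untreated B73 leaf protoplasts, cells freed of their walls by enzymes. Each was 1 pool of protoplasts, released from the outer 6 cm of the second leaf (leaf 2) of 6 V2-stage plants, and the plants of library 2 were grown at another time. There was no treatment and no second genotype, so the libraries are replicates of 1 group, and both quartiles of a library share its pool, its digestion and its run.

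Both quartiles had the MS profile that the selection asked for, and they differed in depth in opposite directions in the 2 libraries. The MS markers PEP1, CAH1 and MDH6 together held 1.17% to 1.41% of nuclear UMIs in every quartile, and the 4 BS markers 0.0121% to 0.0224%. The summed BS marker share was lower in the high than in the low quartile, at 0.0150% against 0.0190% in library 1 and 0.0121% against 0.0224% in library 2. Most of these UMIs were of RBCS1 and RBCS2, which were lower in both libraries. PCK1 was higher in both as a part of nuclear UMIs, and ME1 in library 1 only. SUT1, the sucrose transporter used as a companion cell marker, had 45 UMIs in the low and 6 in the high quartile of library 1, and 1 and 0 in library 2. Of the low-quartile cells 12 and 11 had under 0.3% MS markers, against 6 and 14 of the high-quartile cells, and the 12 cells of library 1 held 23 of the 45 SUT1 UMIs. The median nuclear UMI count per cell was 19422 in the low and 17764.5 in the high quartile of library 1, and 8093 and 9574 in library 2, where it was higher in the high quartile. Nuclear UMIs summed over a quartile of cells ran from 7531862 to 20183663. Doublets were limited only by the upper gene limit, since no caller was run. Among all barcodes, before any limit was applied, 11 sequences occurred in both libraries.

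The ranking itself fixed the difference in chloroplast share, which is given as a description. In library 1 the median share was 1.16%, 1.61%, 2.03% and 2.67% from the lowest to the highest quartile. Library 2 lay lower, at 0.547%, 0.967%, 1.42% and 2.12%, so that its median in each quartile lay below that of the same quartile in library 1. There was no gap at the boundaries. The last cell inside the low quartile had 1.41194% and the next one outside 1.41266% in library 1 (0.757289% and 0.757423% in library 2), and the last cell outside the high quartile had 2.27766% and the first inside 2.27891% (1.70276% and 1.70373%). The median number of chloroplast UMIs per cell was 217 and 500 in the low and high quartiles of library 1 and 44 and 217 in those of library 2.

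**Figure D1:**
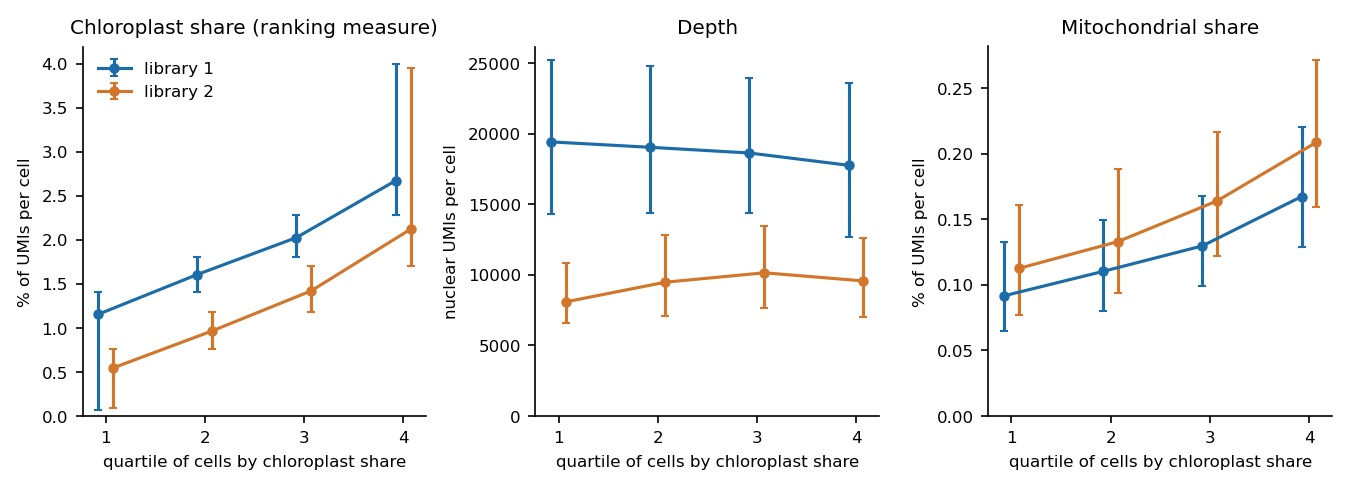
Chloroplast share, nuclear UMIs and mitochondrial share per cell in the 4 quartiles of each library, lowest chloroplast share at 1. Points are medians over cells, and bars span all cells in the panel of the chloroplast share and the middle 50% of cells in the others. The chloroplast share rises by construction, from 1.16% to 2.67% in library 1 and from 0.547% to 2.12% in library 2.

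A handful of genes made up most of the chloroplast UMIs. The ranking used the sum of these same UMIs, so that higher levels in the high quartile follow from it and are given as a description only. Of 157 chloroplast features, 46 in library 1 and 44 in library 2 had at least 100 UMIs in the low and high quartiles together. Each of these took a larger part of all UMIs in the high quartile. Their log2 ratios ran from 0.72 to 1.67 (median 1.30) in library 1 and from 1.13 to 3.59 (median 2.23) in library 2. The 6 features with the most UMIs over both libraries together were atpF and atpE of the ATP synthase, ndhC of the NDH complex, psbK of photosystem II, petB of the cytochrome b6f complex and the maturase matK. Together they held 70.8% of chloroplast UMIs in library 1 and 74.2% in library 2, where psbC of photosystem II, with 16269 UMIs, lay above petB (8104) and matK (5655).

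These 6 genes did not keep fixed proportions. The share of atpF in chloroplast UMIs was 14.2% in the low and 17.7% in the high quartile of library 1 but 22.7% and 21.5% in library 2. The share of ndhC was smaller in the high quartile of both libraries, at 16.57% against 12.21% and 22.47% against 16.12%. That of atpE was larger in both, at 9.10% against 9.56% and 6.97% against 10.5%. As a part of all UMIs, petB was 2.72-fold higher in the high quartile of library 1 and 7.24-fold higher in library 2, and its share of chloroplast UMIs differed between the libraries, at 9.90% of those in library 1 and 1.79% in library 2. The photosystem II core gene psbA was 2.51-fold and 4.67-fold higher, the plastid ribosomal protein genes rpl14 3.11-fold and 4.94-fold and rps3 2.87-fold and 6.42-fold, and ndhD of the NDH complex 2.12-fold and 4.40-fold. Chloroplast rbcL, the gene of the Rubisco large subunit, had 0 UMIs in the kept MS cells of both libraries, a count that allows up to 3 and covers counting error only.

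Mitochondrial transcripts, which the ranking did not use except through the total, moved with the chloroplast share. The median mitochondrial share was 0.0916% in the low and 0.167% in the high quartile of library 1 and 0.113% and 0.209% in library 2, and it was larger at each step from quartile to quartile. Across cells, which are not replicates, Spearman's rho between both shares was 0.44 over 3978 cells and 0.45 over 3313 cells, with the total UMI count as their common divisor. Once depth was equal, the number of nuclear genes detected still differed, but not in the same direction in both libraries. With every cell thinned to 3000 nuclear UMIs, and no cell below that, the median was 1367 genes in the low and 1335 in the high quartile of library 1 and 1259 and 1351 in library 2, so the direction turned between libraries. Without thinning the medians of all detected genes were 4191 and 3926.5 in library 1 and 2334 and 2786.5 in library 2.

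Nuclear genes that differed between the quartiles were mostly lower in the cells with many chloroplast transcripts. Nuclear UMIs were summed per library and quartile and fitted with edgeR's quasi-likelihood test with library as a term. Of 15787 nuclear genes tested, 334 (2.12%) passed a Benjamini-Hochberg adjusted p of 0.05, 63 of them (0.399% of those tested) higher and 271 (1.72%) lower in the high quartile. The lower genes included 75 for cytosolic ribosomal proteins, 4 for aquaporins and 3 for metallothioneins. Of the 63 higher genes 27 had a description. The median log2 fold change of all genes tested was -0.01. All fold changes below are high against low quartile on the log2 scale, with a standard error from the fit, and levels are in CPM, UMIs per 1000000 nuclear UMIs. The test rests on 4 sums from 2 libraries with 1 residual degree of freedom, so that its p-values cover no spread beyond these libraries. For each gene edgeR draws that spread toward a trend over all genes, with a median of 9.37 prior degrees of freedom. The p-values and standard errors thus rest largely on spread borrowed from other genes. Each gene said below to have outer quartiles without overlap was called on these same sums, so this is a description only. The share of all genes without such overlap was not counted.

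Most calls were ordered over the quartiles, and how many passed depended on the scaling and on the cells summed. Of the 63 higher genes, 56 in library 1 and 60 in library 2 rose at each step over the 4 quartiles, and of the 271 lower genes 236 and 190 fell at each step. Of all 15787 genes tested, 1847 and 3505 rose and 2999 and 2013 fell at each step. The calls were made on the outer quartiles of these same sums, so this order follows in large part from the selection. On the same sums, scaling by total nuclear UMIs alone ended every call, with 0 genes past the threshold in edgeR and 2376 at an unadjusted p under 0.05. No gene passed with the high and low quartiles matched on nuclear depth, although 331 of the 333 called genes tested there kept an unadjusted p under 0.05 and all 333 their sign, and edgeR gave an unadjusted p under 0.05 to 2776 genes in all. With the cells under 0.3% MS markers left out, a limit chosen after seeing the data, 4 genes passed (0 higher, 4 lower), and 327 of 327 called genes tested there kept their sign. Leaving out the cells with 3 or more UMIs of the iron-related NAS genes, also chosen after seeing the data, gave 93. Other choices of cells kept most calls, with 299 of the 334 among 505 for the upper against the lower 50% of cells, 266 among 272 without the upper chloroplast limit and 258 among 423 with both sides matched on mitochondrial share. With every cell thinned to 3000 nuclear UMIs, 297 genes passed, 173 of them among the 334. Of the 334, 287 were tested there, and all 287 kept their sign. DESeq2 on the main sums called 306 genes, 193 of them among the 334. It gave no adjusted p to 7958 of the 15787 genes. All 334 kept their sign there, with a DESeq2 unadjusted p under 0.05. All these settings reuse cells of the same 2 libraries for genes already called, so kept signs and unadjusted p-values are no independent support.

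Transcripts for cytosolic ribosomal proteins were lower in the cells with the most chloroplast transcripts, and they held the most calls of the 24 gene lists. Of 184 such genes tested, 75 were lower and 0 higher, against 1.72% of all genes called lower. The 75 were 43 genes for 60S and 32 for 40S subunit proteins, with several proteins present as more than 1 locus. The members had a median of -0.97 (-1.20 in library 1, -0.69 in library 2), and 179 of the 184 were below 0 in both libraries, against 33.5% of all genes. Most of the list came from tables of genes that the study had picked on these samples, so its counts are not independent evidence of a direction. No member passed with matched depth or without the low-marker cells, where 0 of 184 were called lower in each case.

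60S ribosomal protein L23 (Zm00001d051929) had the most negative fold change of the group. Its level was 73.4, 42.6, 27.5 and 18.8 CPM from the lowest to the highest quartile of library 1 and 32.3, 21.1, 18.7 and 11.8 in library 2. Both libraries thus fell at each step, and the low quartiles lay above the high quartiles without overlap. The log2 fold change was -1.75 ± 0.22 (SE, n = 2 libraries, edgeR adjusted p = 0.0175). The proteins L27-2, L35a-2 and L35 followed with log2 fold changes of -1.74, -1.70 and -1.69.

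Not every member followed. The gene described as 60S ribosomal protein L10-3 (Zm00001d033128), the one with the most UMIs, had 1531 and 1846 CPM in the low and high quartiles of library 1 and 1321 and 1876 in library 2. Its log2 fold change of 0.36 ± 0.29 did not pass the test (edgeR adjusted p = 0.535). A 60S biogenesis factor (Zm00001d014585), which acts in assembly of the subunit rather than as part of it, had the highest value of the list, 0.49 ± 0.26 (edgeR adjusted p = 0.327). Ribosomal protein genes of maize exist in near-identical copies, so that a value for 1 copy is uncertain.

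**Figure D2:**
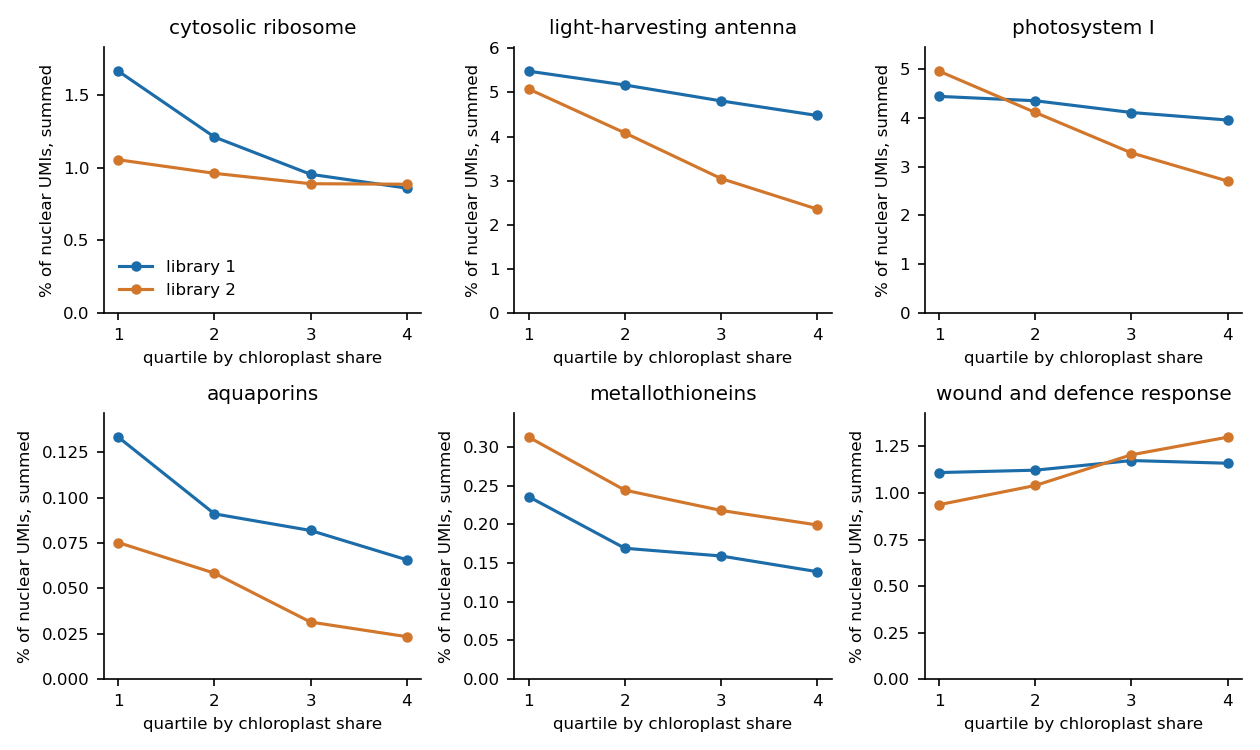
Share of all nuclear UMIs held by 6 gene lists, summed over the cells of each quartile (x axis, lowest chloroplast share at 1) in each library. Cytosolic ribosomal protein genes go from 1.66% to 0.859% in library 1 and from 1.05% to 0.886% in library 2, and antenna genes from 5.48% to 4.48% and from 5.08% to 2.36%.

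The summed level of the ribosomal list moved less in library 2 than its members did. The 184 genes held 1.66% of nuclear UMIs in the low and 0.859% in the high quartile of library 1 and 1.05% and 0.886% in library 2, and the sum was smaller at each step in both. As log2 ratios of sums these are -0.95 and -0.25. The median cell went from 1.17% to 0.751% in library 1 but from 0.804% to 0.833% in library 2, so the lower sum in library 2 was not a shift of the median cell. Cells with over 1.5% of their nuclear UMIs in this list numbered 409, 233, 112 and 85 from the lowest to the highest quartile of library 1 and 127, 97, 62 and 55 in library 2. A tail of ribosome-rich cells was therefore larger in the low quartiles of both libraries.

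**Figure D3:**
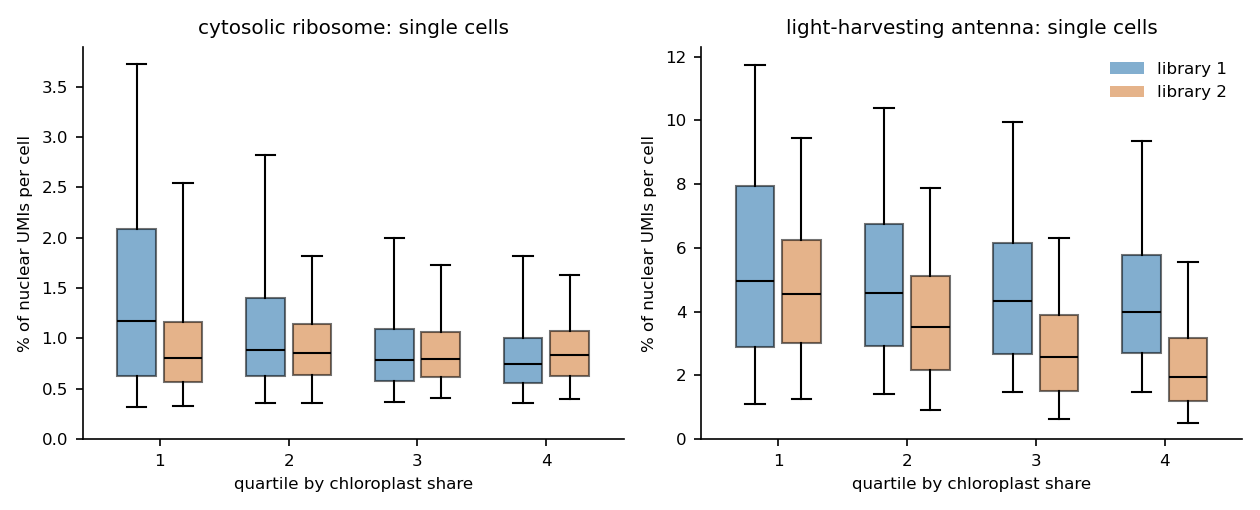
Share of nuclear UMIs per cell held by cytosolic ribosomal protein genes and by antenna genes, by quartile (x axis) and library. Boxes span the middle 50% of cells with the median as a line, and whiskers reach percentiles 5 and 95. The ribosomal boxes of library 1 have their longest upper part in the low quartile, while the antenna medians go from 4.97% to 3.98% and from 4.56% to 1.94%.

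The proteins that assist the ribosome gave smaller values. Of 33 translation factors, 24 were below 0 in both libraries, against 33.5% of all genes, with a median of -0.46, and 1 passed, against 1.72% of all genes called lower. It was a gene for elongation factor 1-alpha (Zm00001d037905; -1.20 ± 0.25, edgeR adjusted p = 0.0436), which delivers aminoacyl-tRNA to the ribosome. The initiation factor with the most UMIs (Zm00001d006760) had 912 and 589 CPM in the low and high quartiles of library 1 and 821 and 617 in library 2, and did not pass (edgeR adjusted p = 0.27). Outside the lists, a gene for Receptor for activated C kinase 1A (RACK1A, Zm00001d009480), a scaffold bound to the small subunit, was among the most strongly lower genes. It had 36.4 and 6.46 CPM in the low and high quartiles of library 1 and 8.90 and 3.08 in library 2 (-2.13 ± 0.27, edgeR adjusted p = 0.0193). The acidic ribosomal stalk protein P2a-2 (Zm00001d009652) was lower as well, at -2.05 ± 0.29 (edgeR adjusted p = 0.0263).

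Nuclear genes for photosynthetic proteins lay below 0 with few calls, and by more in library 2 than in library 1. Of 21 light-harvesting antenna genes, whose proteins bind chlorophyll and pass light energy to the reaction centres, 20 were below 0 in both libraries against 33.5% of all genes, and 0 passed in either direction. Their median was -0.67, made of -0.23 in library 1 and -1.31 in library 2, and the smallest edgeR adjusted p in the list was 0.0971. The difference between the libraries was not tested. These lists too came mostly from genes the study had picked on these samples.

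A photosystem II light-harvesting gene (Zm00001d044399) had the most negative value of the antenna. Its level over the 4 quartiles was 1526, 1439, 1217 and 1008 CPM in library 1 and 860, 488, 284 and 204 in library 2. Both libraries were ordered from low to high, but the low quartile of library 2 lay below the high quartile of library 1, and the log2 fold change of -1.36 ± 0.39 did not pass (edgeR adjusted p = 0.0971). The most abundant antenna gene (Zm00001d026599) had 6967 and 6292 CPM in the low and high quartiles of library 1 and 4012 and 2356 in library 2 (-0.49 ± 0.36, edgeR adjusted p = 0.494). The median cell held 4.97% of its nuclear UMIs in antenna genes in the low and 3.98% in the high quartile of library 1, and 4.56% and 1.94% in library 2.

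The nuclear subunits of both photosystems gave medians like that of the antenna. Both medians were farther from 0 in library 2. Photosystem I had a median of -0.62 over 17 genes (-0.14 in library 1, -1.11 in library 2) with 0 calls, and its reaction centre subunit V (Zm00001d005996) had 1608 and 1205 CPM in library 1 and 1865 and 704 in library 2 (-0.94 ± 0.35, edgeR adjusted p = 0.172). Photosystem II had a median of -0.63 over 21 genes (-0.13 and -1.16) with 1 call, lower (4.76% against 1.72% of all genes). This was an oxygen-evolving enhancer protein 3 (Zm00001d002993), an extrinsic protein of the water-splitting complex, with 30.2 and 14.4 CPM in library 1 and 37.8 and 16.3 in library 2 (-1.16 ± 0.22, edgeR adjusted p = 0.0352). The photosystem II gene with the most UMIs (Zm00001d049387) had 17225 and 17500 CPM in library 1 and 25588 and 19320 in library 2, opposite directions in the 2 libraries.

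Other nuclear parts of the chloroplast machinery were closer to the median of all genes. In the electron transport and ATP synthase list the median was -0.35 over 15 genes (-0.10 in library 1, -0.69 in library 2), with 1 lower call (6.67% against 1.72% of all genes). This was the ATP synthase delta subunit (Zm00001d052242), with 103 and 57.8 CPM in library 1 and 148 and 57.7 in library 2 (-1.12 ± 0.25, edgeR adjusted p = 0.0483). Ferredoxin (Zm00001d042049), the electron carrier after photosystem I, had a log2 fold change of -0.01 ± 0.35. In the NDH complex the median was -0.43 over 14 genes (-0.23 and -0.70), with 1 lower call (7.14% against 1.72% of all genes). This was the subunit CRR3 (Zm00001d020030), at -1.17 ± 0.25 (edgeR adjusted p = 0.045).

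The nuclear genes that serve plastid gene expression had no calls. The plastid ribosome list had a median of -0.31 over 27 genes (-0.15 in library 1, -0.42 in library 2) and 0 calls, and the factors of plastid transcription and translation had a median of -0.12 over 18 genes (-0.02 and -0.21) and 0 calls. One gene for plastid elongation factor Tu (Zm00001d017092) had 366 and 364 CPM in library 1 and 621 and 520 in library 2 (-0.16 ± 0.26). Chlorophyll and tetrapyrrole synthesis had a median of -0.18 over 10 genes (-0.08 and -0.32) and 0 calls. Its members ran from the magnesium-protoporphyrin cyclase (Zm00001d008230), an enzyme of chlorophyll synthesis, at -0.89 ± 0.28 to the siroheme methyltransferase (Zm00001d044138), on the branch to siroheme, at 0.74 ± 0.23, neither of which passed.

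**Figure D4:**
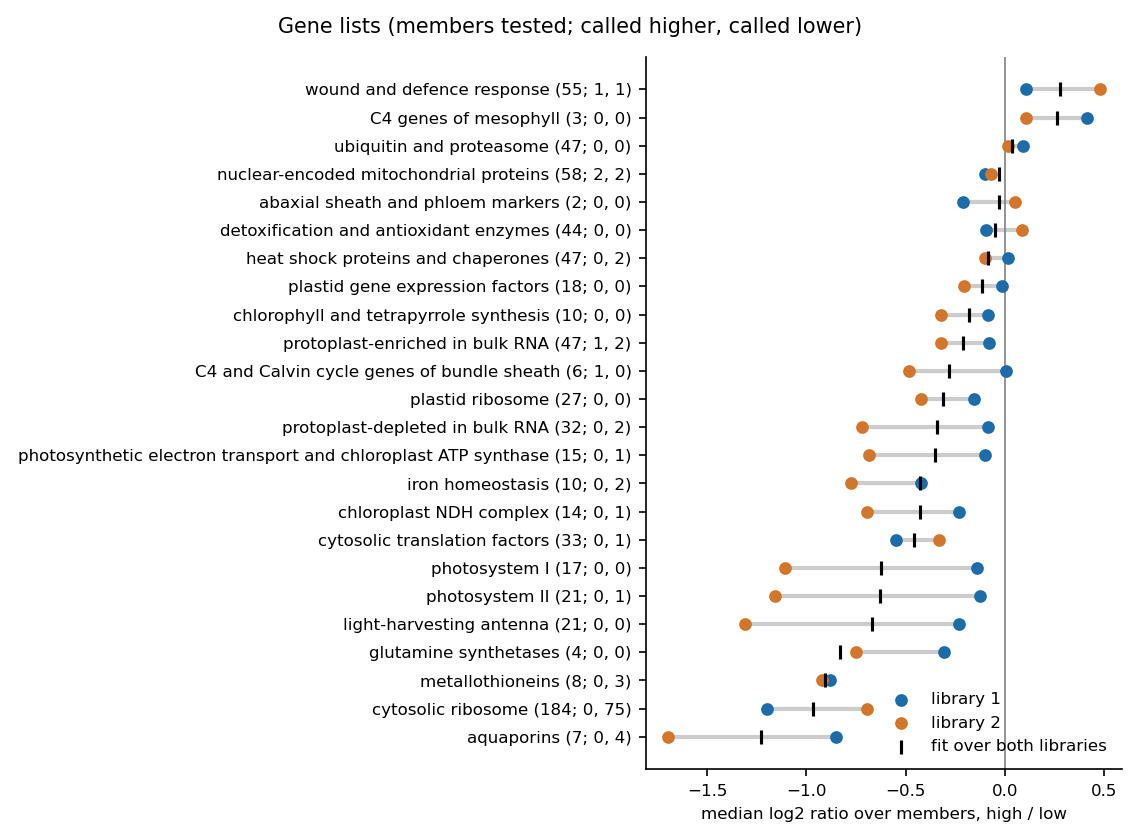
Median log2 ratio, high against low quartile, over the tested members of each of 24 gene lists, as a dot for each library and a black tick for the fit over both. The numbers after a name are members tested, called higher and called lower. Aquaporins, cytosolic ribosomal proteins and metallothioneins have the lowest medians, at -1.23, -0.97 and -0.90, and the antenna and photosystem dots of the 2 libraries lie far apart.

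Of the 6 genes in the list of the C4 cycle in MS cells, 3 were tested and none passed, and the other 3 chose the cells. PEP1, the initial CO2-fixing enzyme PEP carboxylase, chose the cells and is described only, with 3728 and 3712 CPM in the low and high quartiles of library 1 and 5527 and 5898 in library 2. CAH1, carbonic anhydrase, had 6021 and 7845 in library 1 and 5907 and 5618 in library 2. MDH6, NADP-malate dehydrogenase, had 1999 and 2421 in library 1 and 2219 and 2443 in library 2. On this scale PEP1 and CAH1 each changed direction between the libraries and MDH6 did not, but PEP1 was nearly equal in library 1. These levels leave out the scaling factors of the fit. Those were 1.092 and 1.0324 in the low and high quartiles of library 1 and 0.895 and 0.991 in library 2. The direction of the small differences in PEP1 and MDH6 thus depends on the scaling.

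Pyruvate orthophosphate dikinase (PDK1, Zm00001d038163), which regenerates the CO2 acceptor, had 4769 and 6003 CPM in library 1 and 8018 and 9851 in library 2 (0.28 ± 0.36, edgeR adjusted p = 0.708). Glycerate kinase (GLYK, Zm00001d035737), the last enzyme of photorespiration, had 453 and 573 in library 1 and 609 and 725 in library 2 (0.26 ± 0.26), and the dikinase regulator PDRP1 (Zm00001d006520) had -0.16 ± 0.30. None of these 3 passed.

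RBCL (Zm00001d006402), a nuclear locus described as the Rubisco large chain, was the called gene among 6 tested BS and Calvin cycle genes. It was called higher, as were 0.399% of all genes. It had 26.7, 35.1, 39.95 and 54.4 CPM over the quartiles of library 1 and 18.6, 26.7, 35.5 and 46.2 in library 2. Both libraries rose at each step, and the low quartiles did not overlap the high ones. The log2 fold change was 1.14 ± 0.21 (edgeR adjusted p = 0.0352). Whether these UMIs came from the nuclear copy or from chloroplast rbcL, which had 0 UMIs, cannot be told apart here.

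The other BS and Calvin cycle genes had values from -0.90 to 0.21. Rubisco activase (RCA2, Zm00001d048593), which reactivates Rubisco, had 46.3 and 27.6 CPM in library 1 and 49.7 and 24.9 in library 2 (-0.90 ± 0.22, edgeR adjusted p = 0.0624). RBCS1, the Rubisco small subunit and a marker that chose the cells, had 119 and 98.2 in library 1 and 167 and 90.6 in library 2. The summed share of the 4 BS markers was lower in the high quartiles too, as given above, and its part in these values was not tested. Its members did not all go that way. PCK1 had 4.01 and 6.67 CPM in library 1 and 5.05 and 5.92 in library 2. ME1 had 7.78 and 8.74 in library 1 and 8.76 and 5.33 in library 2.

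Glutamine synthetases, which fix ammonia into glutamine, gave a median and sums of opposite sign. The median of the 4 tested was -0.83 with 0 calls, whereas their summed share had a log2 ratio of 0.28 in library 1 and 0.24 in library 2. The abundant plastid isozyme GLN1 (Zm00001d026501) had 470 and 648 CPM in library 1 and 371 and 559 in library 2 (0.49 ± 0.25, edgeR adjusted p = 0.302). The scarce GLN3 (Zm00001d028260), known from the BS, had 3.42 and 0.868 in library 1 and 5.71 and 3.197 in library 2 (-1.42 ± 0.35, edgeR adjusted p = 0.0663).

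Aquaporins were lower in the cells with many chloroplast transcripts. All 7 tested were below 0 in both libraries, against 33.5% of all genes, with a median of -1.23 (-0.85 in library 1, -1.70 in library 2), and 4 passed, all lower, against 1.72% of all genes. These were the plasma membrane water channels PIP2-6, PIP2-1 and PIP1-5 and the vacuolar channel TIP1-1. PIP2-6 (Zm00001d019565) had 65.4, 28.2, 20.9 and 12.1 CPM over the quartiles of library 1 and 35.98, 16.6, 3.21 and 4.74 in library 2. The low quartiles lay above the high ones without overlap, and the order broke only between the upper quartiles of library 2. Its log2 fold change was -2.66 ± 0.25 (edgeR adjusted p = 0.00857), and it was 1 of the 4 genes called without the low-marker cells. Its UMIs were unevenly spread, with 50.1% and 55.7% of those in the low quartiles in 10 cells.

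PIP2-1 (Zm00001d019563) was the more abundant and more evenly spread channel. It had 620 and 283 CPM in library 1 and 329 and 99.1 in library 2 (-1.46 ± 0.28, edgeR adjusted p = 0.036). The 10 cells with the most UMIs held 8.62% and 14.95% of those in the low quartiles. PIP2-4 (Zm00001d017288), with -1.04 ± 0.24, had the value nearest 0 of the group and did not pass (edgeR adjusted p = 0.0537). PIP genes are similar in sequence, and how reads between them were divided was not tested.

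Metallothioneins, small cysteine-rich proteins that bind metals, were lower for 3 of 8 tested genes, against 1.72% of all genes, with a median of -0.90 that was -0.53 without the low-marker cells. MT1b (Zm00001d048611) had 745, 373, 350 and 276 CPM over the quartiles of library 1 and 657, 395, 305 and 259 in library 2. It fell at each step in both libraries, with no overlap of the outer quartiles, and its log2 fold change was -1.42 ± 0.25 (edgeR adjusted p = 0.0327). In the low quartile of library 1, 3301 of its 15033 UMIs were in the 12 low-marker cells, and without such cells the fold change was -1.26. The similar gene 2A had -1.53 ± 0.23 (Zm00001d008620, edgeR adjusted p = 0.0263).

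Metallothionein 2C (Zm00001d035659) rested on few cells in library 1. It had 194 and 18.5 CPM in library 1 and 211 and 54.2 in library 2 (-2.71 ± 0.31, edgeR adjusted p = 0.00937). Of its 3912 UMIs in the low quartile of library 1, 3386 lay in the 12 low-marker cells, and without such cells the log2 fold change was -1.28. The most abundant member, metallothionein2 (Zm00001d029778), had 1045 and 934 CPM in library 1 and 1693 and 1201 in library 2 and did not pass (-0.36 ± 0.29, edgeR adjusted p = 0.535).

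Among iron-related genes the calls rested on a few cells. Of 10 tested, NAS1 and NAS10, synthases of the metal chelator nicotianamine, were lower (20% against 1.72% of all genes). NAS1 (Zm00001d047651) had 49 and 11 UMIs in the low and high quartiles of library 1 and 23 and 2 in library 2, and NAS10 (Zm00001d047658) had 61 and 9 and 11 and 1. In the low quartiles the UMIs of each gene lay in 9 cells of library 1 and 1 cell of library 2. Their log2 fold changes were -2.50 ± 0.52 and -2.76 ± 0.52 (edgeR adjusted p = 0.0432 and 0.036), and both turned positive under a ranking without the top chloroplast gene, at 0.17 and 0.13. Cells with 3 or more UMIs of the NAS genes numbered 8, 12, 8 and 3 over the quartiles of library 1 and 1, 0, 0 and 0 in library 2, so the folds describe a few cells. The list median was -0.43. A ZIP-family zinc and iron transporter (Zm00001d019228) had a value of 1.27 ± 0.29 and did not pass (edgeR adjusted p = 0.0544).

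Few of the genes that were higher in the high quartile had most of their UMIs in a few cells. Over 50% of a gene's UMIs lay in 10 cells for 1 (library 1) and 2 (library 2) of the 63 higher genes in the high quartile, against 26 and 60 of the 271 lower genes in the low quartile. UDP-glycosyltransferase 74B1 (Zm00001d004366), whose Arabidopsis namesake acts in glucosinolate synthesis, had the largest fold among described genes. It had 25.7, 40.8, 53.2 and 65.9 CPM over the quartiles of library 1 and 12.5, 28.5, 31.3 and 64.8 in library 2. Its log2 fold change was 1.81 ± 0.25 (edgeR adjusted p = 0.0218), with a rise at each step and no overlap of the outer quartiles.

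Both loci described as Long chain base biosynthesis protein 1, a subunit of the enzyme that starts sphingolipid synthesis, were among the higher genes. The more abundant one (Zm00001d047908) had 44.3, 59.9, 82.0 and 95.2 CPM in library 1 and 7.17, 12.3, 18.8 and 30.7 in library 2. It rose in order in each library, but the high quartile of library 2 lay below the low quartile of library 1, and the log2 fold change was 1.51 ± 0.25 (edgeR adjusted p = 0.028). The other (Zm00001d028443) had 1.497 ± 0.33. Fatty-acid-binding protein 2 (Zm00001d018278), of a family that binds fatty acids in Arabidopsis plastids, had 61.5 and 101 CPM in library 1 and 11.6 and 64.8 in library 2 (1.504 ± 0.33, edgeR adjusted p = 0.0483).

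CBL5 (Zm00001d044389) is of the calcineurin B-like calcium sensors, and CIPK10 (Zm00001d022450) is of the kinases that such sensors bind. CIPK10 had 12.3 and 24.5 CPM in library 1 and 7.17 and 25.6 in library 2 (1.35 ± 0.24), and CBL5 10.9 and 18.6 and 4.65 and 20.1 (1.32 ± 0.29; edgeR adjusted p = 0.0352 and 0.0483). IAA26 (Zm00001d016277), of the auxin-degraded transcriptional repressors, had 13.3 and 25.6 in library 1 and 11.2 and 42.4 in library 2 (1.38 ± 0.25, edgeR adjusted p = 0.0327). WRKY34 (Zm00001d006001), of a family of transcription factors with roles in defence, had 11.4 and 24.6 and 8.76 and 26.9 (1.32 ± 0.23, edgeR adjusted p = 0.0305). In each of these 4 genes both high quartiles lay above both low quartiles. They were named for their rises in these sums, so this is a description, and the share over all genes was not counted.

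Hemoglobin1 (Zm00001d048020), of the plant hemoglobins that scavenge nitric oxide, had 117, 166, 173 and 211 CPM over the quartiles of library 1 and 26.3, 45.3, 47.98 and 98.6 in library 2 (1.33 ± 0.26, edgeR adjusted p = 0.0364). It rose at each step, while its whole range in library 2 lay below that in library 1. The galactosyltransferase GALT4 (Zm00001d034508), which adds galactose to arabinogalactan proteins, had 1.43 ± 0.26, a putative copper transporter (Zm00001d002705) 1.38 ± 0.28, and a Core-2/I-branching glycosyltransferase (Zm00001d002382) 1.34 ± 0.29, all called. Of the genes without a description, Zm00001d000417 had 155, 205, 259 and 367 CPM in library 1 and 94.1, 161, 238 and 377 in library 2 (1.59 ± 0.25), and Zm00001d037783 had 1.68 ± 0.29.

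**Figure D5:**
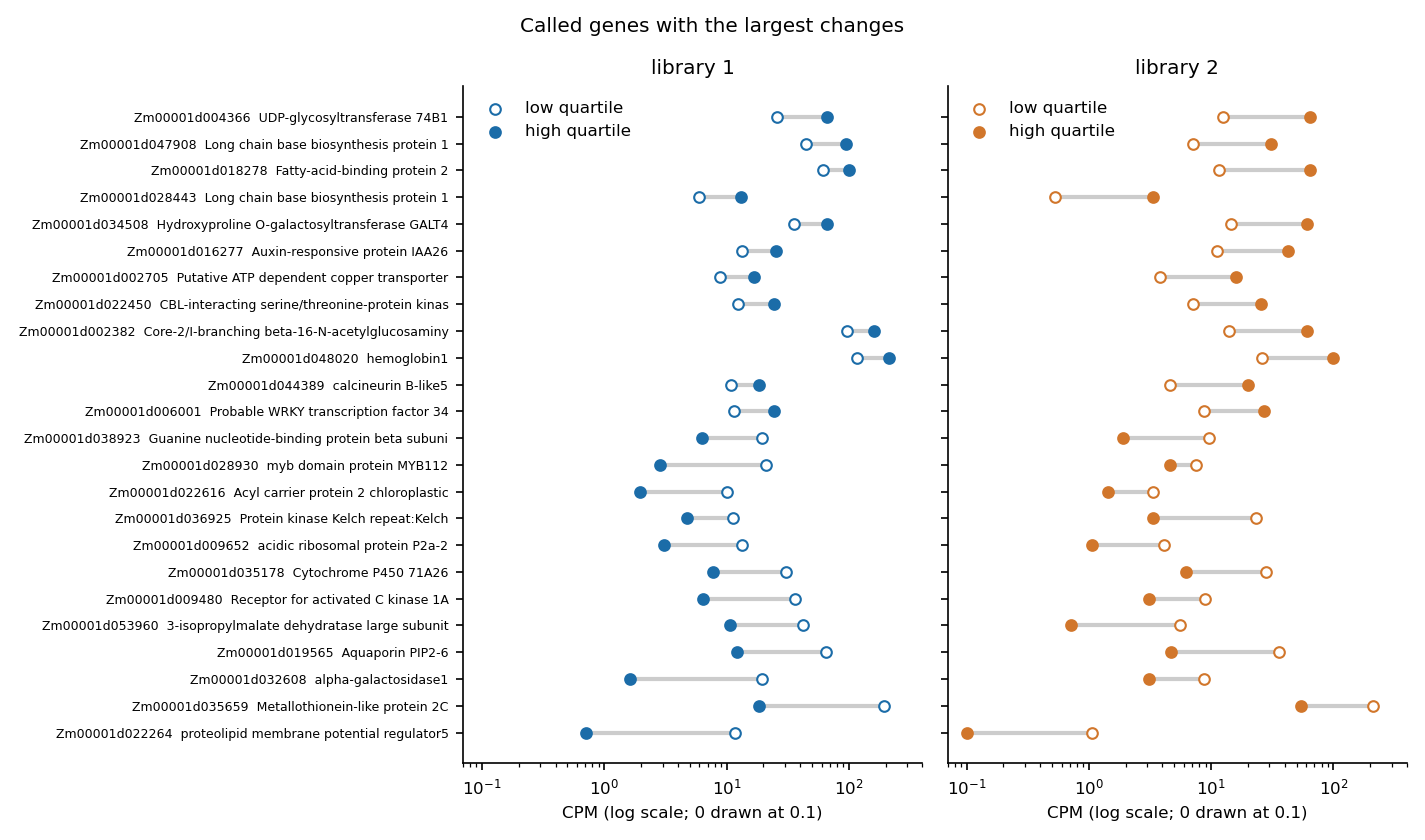
Level in CPM (log axis, with 0 drawn at 0.1) of the 12 described genes with the largest rise and the 12 with the largest fall, in the low quartile (open points) and high quartile (filled points) of each library. UDP-glycosyltransferase 74B1 goes from 25.7 to 65.9 and from 12.5 to 64.8, and PIP2-6 from 65.4 to 12.1 and from 35.98 to 4.74.

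The most strongly lower genes outside these groups included several carried by few cells. The proteolipid membrane potential regulator gene (Zm00001d022264), of small membrane proteins, had 235 and 13 UMIs in the low and high quartiles of library 1 and 8 and 0 in library 2. Of the 235 UMIs 94.9% lay in 10 cells and 186 in the low-marker cells, and the fitted value of -4.06 ± 0.46 rests on them (edgeR adjusted p = 0.00937). The undescribed gene Zm00001d029099 had 1247 and 35 UMIs in library 1 and 1372 and 3 in library 2, with 99.6% and 98.8% of those in the low quartiles in 10 cells (-6.24 ± 0.62, edgeR adjusted p = 0.00857). The undescribed Zm00001d048191 had -3.81 ± 0.50, with 173 of its 211 low-quartile UMIs in library 1 in low-marker cells. MYB112 (Zm00001d028930), a transcription factor, had 100% of its low-quartile UMIs of library 2 in 10 cells or fewer and a value of -1.94 ± 0.40, which was -0.89 without the low-marker cells.

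Others were spread more widely. Cytochrome P450 71A26 (Zm00001d035178), of a large family of oxidising enzymes, had 30.7, 12.3, 7.97 and 7.81 CPM over the quartiles of library 1 and 27.9, 12.8, 9.18 and 6.28 in library 2. It fell at each step with no overlap (-2.08 ± 0.24, edgeR adjusted p = 0.00937) and was called without the low-marker cells too. Alpha-galactosidase1 (Zm00001d032608), which removes galactose from sugars, had 19.3 and 1.63 in library 1 and 8.76 and 3.08 in library 2 (-2.66 ± 0.40, edgeR adjusted p = 0.0263). The large subunit of 3-isopropylmalate dehydratase (Zm00001d053960), an enzyme of leucine synthesis, had 42.3 and 10.6 and 5.58 and 0.711 (-2.20 ± 0.30, edgeR adjusted p = 0.0218).

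The remaining lower genes named here had other functions. A kinase-Kelch repeat gene (Zm00001d036925) had 11.4 and 4.72 CPM in library 1 and 23.1 and 3.32 in library 2 (-1.97 ± 0.37). Acyl carrier protein 2 (Zm00001d022616), which holds the growing chain in plastid fatty acid synthesis, had 10.01 and 1.95 and 3.32 and 1.42 (-1.95 ± 0.34). A guanine nucleotide-binding protein beta subunit-like gene (Zm00001d038923) had -1.89 ± 0.29, and the cytoskeletal actin ACT1 (Zm00001d010159) -1.67 ± 0.31. Their edgeR adjusted p-values were 0.0352, 0.0306, 0.0263 and 0.0352.

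Stress-related lists held few calls. Of 55 wound and defence genes tested, WRKY34 was higher and PR5, of the thaumatin-like defence proteins, lower (-1.52 ± 0.30, edgeR adjusted p = 0.041), and the median was 0.28 (0.11 in library 1, 0.48 in library 2). Of all genes, 0.399% were called higher and 1.72% lower. The most abundant member, an endochitinase (Zm00001d017152), had 4146 and 4287 CPM in library 1 and 3304 and 4833 in library 2 (0.27 ± 0.33). In all, 28 of the 55 were above 0 in both libraries, against 34.1% of all genes. The most negative member, Pathogenesis-related protein 10 (Zm00001d028815), had -1.69 ± 0.44 and did not pass.

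Heat shock proteins and chaperones, which help proteins fold, had 2 lower calls of 47 (1.72% of all genes were called lower) and a median of -0.08. The calls were an HSP20-like gene (Zm00001d049305; -1.55 ± 0.34) and the chloroplast DnaJ 20 (Zm00001d040215; -1.50 ± 0.31; edgeR adjusted p = 0.0496 and 0.0436). At the other end, a DnaJ-like gene (Zm00001d044426) had 418 and 764 CPM in library 1 and 513 and 1168 in library 2 and did not pass (1.00 ± 0.26, edgeR adjusted p = 0.0754). The ubiquitin and proteasome list (47 tested, median 0.03) and the detoxification list (44 tested, median -0.05) had 0 calls, with smallest edgeR adjusted p-values of 0.0885 and 0.0501.

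Nuclear genes for mitochondrial proteins had calls in both directions, 2 higher and 2 lower of 58 tested (0.399% and 1.72% of all genes), with a median of -0.03. Their summed share was 0.376% in the low and 0.343% in the high quartile of library 1 and 0.363% and 0.441% in library 2, opposite directions. The higher ones were a calcium uniporter (Zm00001d043089; 1.01 ± 0.22), a channel for calcium uptake, and cyclic pyranopterin monophosphate synthase (Zm00001d016866; 1.15 ± 0.23), of molybdenum cofactor synthesis. The lower ones were glycine-rich RNA-binding protein 3 (Zm00001d041750; -1.63 ± 0.29) and TIM9 (Zm00001d027342; -1.53 ± 0.26), a chaperone of protein import. Their edgeR adjusted p-values ran from 0.0301 to 0.0483.

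Genes that the study had found to differ between protoplasts and intact leaf formed a pair of lists. Of all genes tested, 0.399% were called higher and 1.72% lower. Of 47 protoplast-enriched genes, 1 was higher, the undescribed Zm00001d000838 with 588 and 1213 CPM in library 1 and 155 and 701 in library 2 (1.58 ± 0.30, edgeR adjusted p = 0.0364), and 2 were lower, an inhibitor of apoptosis-like gene (Zm00001d003852; -1.28 ± 0.28) and a glutaredoxin (Zm00001d039468; -1.21 ± 0.22). Of 32 protoplast-depleted genes tested, 0 were higher and 2 lower, the late embryogenesis abundant gene Lea5 (Zm00001d040659; -2.001 ± 0.31) and a heavy metal transport gene (Zm00001d029716; -1.63 ± 0.35). The medians were -0.21 and -0.34. Whether the handling of the protoplasts bears on the chloroplast share was not tested.

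Of 27 genes with a symbol in the study's tables that were tested, 5 passed, against 2.12% of all genes: RBCL, MT1b, NAS1, NAS10 and ACT1. The other 22 ran from -1.42 for GLN3 to 0.51 for SWEET13c. They included NAAT1, of phytosiderophore synthesis, at -0.99 ± 0.25, the cystatin CC3 at -0.61 ± 0.22, the proton pump AHA3 at -0.52 ± 0.34 and the regulators bZIP4 and MYB25 at -0.16 ± 0.20 and 0.01 ± 0.20, none past the test. The sucrose exporter SWEET13a, a marker of abaxial BS, had 17 and 12 UMIs in library 1 and 11 and 7 in library 2, too few to show a difference at this depth.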

How the data were processed

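Protoplasts of B73 leaves were sequenced as 2 10x 3′ libraries. The authors deposited raw UMI counts per gene and barcode from Cell Ranger 3.1.0, with alignment by STAR to B73 RefGen_v4, and all 46430 features were present in both libraries. Cell limits were those of the study. UMIs of nuclear genes were summed per library and quartile (4 sums). The 7 markers that chose the cells were left out of the genes tested, and the 157 chloroplast, 208 mitochondrial and 1919 other features (noncoding RNA and microRNA) were left out of sums and library sizes.

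The sums were tested with edgeR 4.0.16 (TMM, filterByExpr, quasi-likelihood, library as a term, 1 residual degree of freedom) in R 4.3.3, with Benjamini-Hochberg adjustment over 15787 genes and a threshold of 0.05. The standard error is the fold change divided by the root of F. A gene near 0 UMIs in 1 of the outer quartiles passed the count filter through the other, so its call is not free of that filter. Ratios per library used a prior count of 2. Levels (CPM) are UMIs per 1000000 nuclear UMIs, without TMM.

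Named genes were, among described genes called in the same direction in both libraries with at least 200 UMIs over the sums, the 12 with the largest fold in each direction, with up to 2 undescribed ones, every tested gene with a symbol, and in each of 24 lists the most abundant member and both extremes. Members and lists were chosen with earlier results of these data known. Alternatives were 13 planned and 3 added after seeing the data, DESeq2 1.42.0 among them.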

Additional observations from a re-analysis of the deposited data

Results flagged for a closer look

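MS cells that passed every other limit but held over 4% chloroplast UMIs were outside all comparisons, and they are shown because their chloroplast signal was above that of the cells compared. There were 191 in library 1 and 27 in library 2. Their median chloroplast share was 5.46% and 4.78% and the highest 16.04% and 7.95%. They were shallower, with a median of 7701 and 5453 nuclear UMIs, and their median mitochondrial share was 0.396% and 0.379%. Cytosolic ribosomal protein genes held 0.756% and 0.765% of their nuclear UMIs, which is below the high quartile in each library (0.859% and 0.886%). Wound and defence genes held 0.959% and 0.946%, below the 1.16% and 1.30% of the high quartiles, so this list did not continue the direction of its median.

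Mitochondrial features are outside the nuclear test, and those whose names end in ct, 28 of 208, carried a signal in the high quartile. They had 13232 UMIs in the high and 6723 in the low quartile of library 1 and 6421 and 3132 in library 2. As a part of all UMIs the log2 ratio was 1.08 and 0.84, against 0.59 and 0.75 for the 180 other mitochondrial features. One of them, rps12-ct, was 2.72-fold and 3.95-fold higher in the high quartile. Whether their reads came from the chloroplast was not tested.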

How the results depend on the processing

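Cells of both quartiles of a library come from 1 pool, so library was the pairing term. With no replicate block 0 genes passed (edgeR; 685 at an unadjusted p under 0.05), and 0 passed when sums were scaled by total nuclear UMIs alone (2376 unadjusted) or matched on nuclear depth (2776 unadjusted), each with 0 higher, 0 lower and 0 lower ribosomal genes, while DESeq2 on the main sums called 306. For the count of calls and its higher and lower parts, no filter on low counts gave 1014 (352 and 662), the outer 10% of cells at each end 1324 (491 and 833) and a linear trend over the 4 quartiles 4458 (2073 and 2385), with 123, 167 and 180 lower ribosomal genes. Upper against lower 50% of the cells gave 505 calls, 134 of them higher. Higher calls numbered 116 with RLE size factors, 109 with DESeq2 and 118 without the top chloroplast gene in the ranking. Without the low-marker cells 4 genes passed (0 higher, 4 lower), with 0 lower ribosomal genes, and without cells of 3 or more NAS UMIs 93 (8 and 85), with 27. The metallothionein median was -0.84 with no replicate block, -0.56 for the upper and lower 50% of cells, -1.32 for the outer 10%, -0.85 with matched depth, -0.79 with thinned cells and -0.53 without the low-marker cells. NAS1 reversed without the top chloroplast gene (0.17), as did NAS10 (0.13), which also reversed for the upper and lower 50% of cells (0.088). The cause of these shifts was not tested. Over the alternatives that kept both libraries the ribosomal median kept its sign, from -1.30 to -0.66, as did those of aquaporins (-1.79 to -0.84), antenna (-0.77 to -0.43), photosystem I (-0.72 to -0.38) and photosystem II (-0.76 to -0.33). With 1 library left out no test is possible, and a list's median then takes its values in single libraries, -1.20 to -0.69 for ribosomal proteins, -1.70 to -0.85 for aquaporins, -1.31 to -0.23 for the antenna, -1.11 to -0.14 for photosystem I and -1.16 to -0.13 for photosystem II.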

Other observations

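The transcripts of the mitochondrial genome did not all move in 1 direction. The large ribosomal RNA rrn26 was 1.55-fold higher in the high quartile of library 1 and 0.828-fold in library 2, opposite directions, while the open reading frame orf99-d was 1.48-fold and 3.32-fold higher. In the high quartile of library 2 orf99-d alone held 34.96% of mitochondrial UMIs, against 18.1% in the low quartile, and in library 1 it held 16.9% and 19.5%.

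Only 4 genes were called without the low-marker cells. Besides PIP2-6 and Cytochrome P450 71A26 these were undescribed: Zm00001d029099, with a log2 fold change of -6.25 there, and Zm00001d018738, which was singled out after its values were seen. Zm00001d018738 had 89 and 0 UMIs in the low and high quartiles of library 1 and 31 and 1 in library 2. The count filter kept it through the low quartiles, where it was high, so its call is not free of that filter. How its UMIs were spread over cells is not shown.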
